A study of Mus musculus with 9 samples.

Results

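Pyruvate dehydrogenase is the mitochondrial enzyme complex that turns pyruvate into acetyl-CoA, and its expression was followed here together with the kinases, the phosphatase and the carrier that control its activity and its substrate. The 10 genes chosen were Pdha1, Pdhb, Dlat, Dld and Pdhx of the complex, the kinase genes Pdk1, Pdk2 and Pdk3, the phosphatase gene Pdp1 and the carrier gene Mpc2. Of these, 8 genes with 15 probe sets were measured, out of 17097 genes on the array, while Dld and Mpc2 lacked a probe set with a name and are not followed further. Where a gene had several single-gene probe sets, the main one was chosen by its mean over all 9 arrays, the highest being taken, and genotype had no part in that choice. The genes themselves were chosen with genotype differences of these arrays already known, so the tests below describe them and are not independent evidence.

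The arrays hold RNA of CD8+ T cells that recognise the model antigen OVA, isolated from mouse spleens with a cell sorter at day 9 of an infection with Listeria monocytogenes. All mice were of the C57BL/6 background and carried floxed alleles of Tsc1, which encodes part of the complex that restrains the growth kinase mTORC1. The 4 WT samples came from mice without cre, and the 5 Tsc1-/- samples from mice whose cre was driven by Granzyme B, a gene that CD8+ T cells switch on after activation. Cre and the loss of Tsc1 therefore cannot be told apart, and age was not given. The sources do not say whether each sample was a separate animal, so a p-value here speaks only of the spread among the samples, which may be technical. Each sample was 1 array made from 12 ng of total RNA, and precision is limited by how few arrays there are.

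The complex works in steps. The E1 subunits, encoded by Pdha1 and Pdhb, decarboxylate pyruvate, Dlat forms the core that passes the acetyl group to coenzyme A on lipoyl arms, Dld reoxidises those arms, and Pdhx anchors Dld to the core. Pyruvate dehydrogenase kinases switch the complex off by phosphorylating E1, phosphatases such as Pdp1 switch it on again, and Mpc1 with Mpc2 carry pyruvate across the inner mitochondrial membrane. Activated T cells are known for sending much of their pyruvate to lactate instead. All of these controls act on protein activity, which arrays do not measure.

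Tsc1, the targeted gene, read 7.66 ± 0.09 on the log2 scale in the 4 WT arrays and 7.40 ± 0.09 (SD) in the 5 Tsc1-/- arrays, and the groups did not overlap (limma, adjusted p = 0.114). Of its 3 probe sets, 1 differed by only -0.01, and their position with respect to the deleted exons is not known here. The CD8 T cell markers were bright in both groups, with Cd8a at 12.08 in WT and 12.10 in Tsc1-/-. The mean of the 12 measured markers lay between 10.84 and 10.90 in WT and between 10.96 and 11.03 in Tsc1-/-, without overlap (exact permutation p = 0.00794). Of the 12, 1 passed, Gzmb, the gene of granzyme B, which rose by 0.58 (adjusted p = 0.0339, limma). Gzma, Prf1 and Zap70 differed by 0.32, 0.30 and 0.20. The remaining markers, among them the Cd3 and Cd8 genes, differed by -0.08 to 0.03, and 4 of the 12 were negative. The shift of the mean is thus not one of the Cd3 and Cd8 genes. Markers of other spleen cells were also measured: of 52, 48 had a negative difference, Tsc1-/- minus WT, where 8848 of all 17097 genes did. Among them only Spic, a macrophage marker, passed (-0.69, adjusted p = 0.0339, limma), where 1.28% of all genes passed. The B cell, NK cell, and erythroid and platelet lists had median levels of 5.88, 4.02 and 6.22, under the median of 6.34 over all genes. The mean of 13 macrophage and monocyte markers lay between 6.47 and 7.05 in WT and between 6.16 and 6.55 in Tsc1-/-, and the mean of 18 mitosis genes between 7.40 and 8.07 and between 8.26 and 8.55. Because these are bulk samples, fewer cells of a type and less RNA per cell cannot be told apart.

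Among the measured genes, the kinase genes Pdk1 and Pdk3 differed most between the genotypes, and in opposite directions. Pdk1 fell by 0.50 on the log2 scale in Tsc1-/-, to 70.9% of its WT level, and it was the only one of the 8 to pass the threshold of an adjusted p under 0.05 (limma, Benjamini-Hochberg over 17097 genes). Over all genes the same test called 0.31% lower and 0.971% higher, or 1.28% in either direction. Pdk3 read 0.50 higher in Tsc1-/-, at 141% of WT, and missed the threshold (adjusted p = 0.0605, limma). The subunits of the complex, Pdk2 and Pdp1 had differences between 0.08 and 0.32, none past the threshold, so that 7 of 8 genes had a positive difference and 1 a negative one. The median over the 8 was 0.17, against -0.01 over all genes. Over the genes at or above the median level, where 5 of the 8 lie, it was 0.03. Pdk3 was the only gene whose arrays separated upwards, and Pdk1 the only one downwards, where 5.08% and 2.88% of all genes did so, or 7.96% in either direction. Since the genes were chosen with these differences known, nothing is read from those shares.

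**Figure D1:**
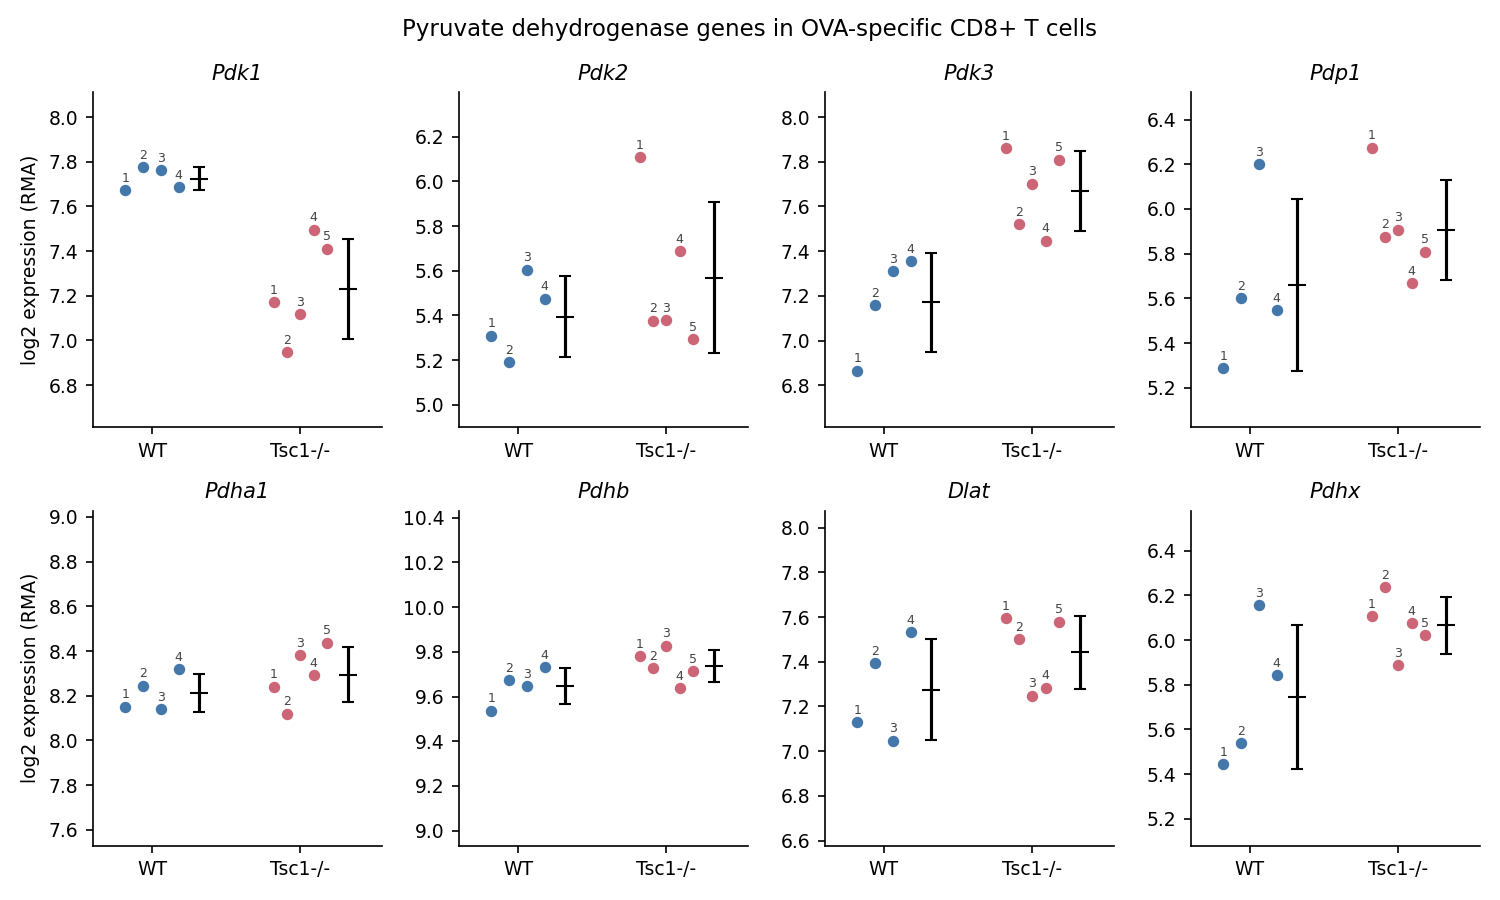
Log2 expression (vertical axes, each spanning 1.5 log2 units) of the 8 measured genes in 4 WT and 5 Tsc1-/- arrays. Points are arrays with their replicate number, and bars give the mean ± SD. All Tsc1-/- arrays lie below all WT arrays for Pdk1 and above them for Pdk3, and the groups overlap for the other 6 genes.

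Pdk1 encodes a kinase that inactivates E1 and is a known target of the hypoxia-inducible factor HIF-1. Its main probe set read 7.67, 7.78, 7.76 and 7.69 in WT replicates 1 to 4, and 7.17, 6.95, 7.12, 7.50 and 7.41 in Tsc1-/- replicates 1 to 5. The WT arrays lay within a narrow band, with an SD of 0.05, while the Tsc1-/- arrays were spread over a wider range below it, with an SD of 0.22. The highest Tsc1-/- array, replicate 4, stayed under the lowest WT array. The difference was -0.50 (SE 0.11, 95% interval -0.73 to -0.26, adjusted p = 0.0490, limma), and the exact two-sided permutation p over all splits of the arrays was 0.0159. The adjusted p lay just inside the threshold: leaving out any one of the 9 arrays raised it to between 0.0538 (without WT replicate 4) and 0.140 (without WT replicate 2), with differences of -0.56 to -0.43. With the mean of the 3 probe sets in place of the brightest, the difference was -0.35 (adjusted p = 0.0765, limma).

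The other Pdk1 probe sets gave smaller differences of the same sign. The next by mean level (7.38, against 7.45 for the main one) read 7.83, 7.66, 7.63 and 7.01 in WT and 7.16, 7.13, 7.34, 7.40 and 7.27 in Tsc1-/-. WT replicates 1 to 3 lay above every Tsc1-/- array there, and WT replicate 4 below every one. Its difference was -0.27 (SE 0.14, exact permutation p = 0.159). The dimmest probe set read 6.20, 6.12, 6.17 and 6.13 in WT and 5.80, 5.75, 5.97, 6.05 and 5.86 in Tsc1-/-, again without overlap, and differed by -0.27 (SE 0.08, exact permutation p = 0.0159). In all 3 probe sets replicate 2 was the lowest of the Tsc1-/- arrays and replicate 4 the highest.

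**Figure D2:**
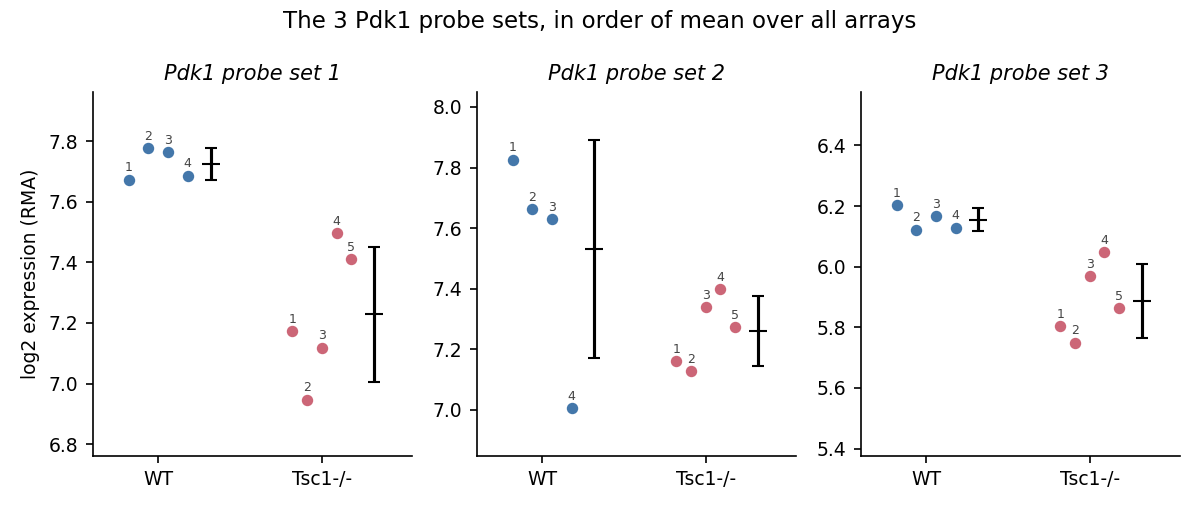
Log2 expression (vertical axes, each spanning 1.2 log2 units) of the 3 Pdk1 probe sets in WT and Tsc1-/- arrays, with replicate numbers and mean ± SD. The groups separate in the first and the third, and WT replicate 4, at 7.01, is the lowest value of the second.

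Pdk3, a kinase that pyruvate inhibits little, read 6.86, 7.16, 7.31 and 7.36 in WT and 7.86, 7.52, 7.70, 7.45 and 7.81 in Tsc1-/- by its single probe set. Every Tsc1-/- array lay above every WT array, though Tsc1-/- replicate 4 (7.45) and WT replicate 4 (7.36) were close. The difference was 0.50 (SE 0.12, 95% interval 0.24 to 0.75, adjusted p = 0.0605, limma; exact permutation p = 0.0159). It passed after median centring of the arrays (0.54, adjusted p = 0.0433, limma), and with dim genes left out, a variance trend or array weights. It missed the threshold after quantile normalization (0.48, adjusted p = 0.0781, limma) and with probe sets not joined (adjusted p = 0.0750, limma). With replicate number as a block on 8 arrays it also missed (0.46, adjusted p = 0.227, limma). Leaving out 1 array gave differences from 0.39 (adjusted p = 0.178, limma; without WT replicate 1) to 0.56 (adjusted p = 0.0451, limma; without WT replicate 4, the only such fit in which Pdk3 passed). The mean level of the mitosis genes was 7.44, 7.40, 7.99 and 8.07 in WT and 8.55, 8.32, 8.26, 8.36 and 8.38 in Tsc1-/-. WT replicates 1 and 2 were lowest for both the mitosis level and Pdk3, and Tsc1-/- replicate 1 was highest for both, but within Tsc1-/- the lowest array was replicate 3 for the mitosis level and replicate 4 for Pdk3. With the mitosis level as a covariate the Pdk3 difference was 0.14 (SE 0.18, adjusted p = 0.891, limma). That of Pdk1 was -0.51 (SE 0.20, adjusted p = 0.649, limma), and both SEs were larger than the 0.12 and 0.11 without it. The mitosis levels of the genotypes did not overlap, so this fit can hardly separate genotype from mitosis. Whether either gene follows the mitosis level was not tested. With the macrophage markers as a covariate instead, the differences of Pdk3 and Pdk1 were 0.40 and -0.68 (adjusted p = 0.627 and 0.379, limma). With either covariate no gene of all those measured passed (limma; 1245 at an unadjusted p under 0.05 with the mitosis level and 1472 with the macrophage level, against 2936 with neither).

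**Figure D3:**
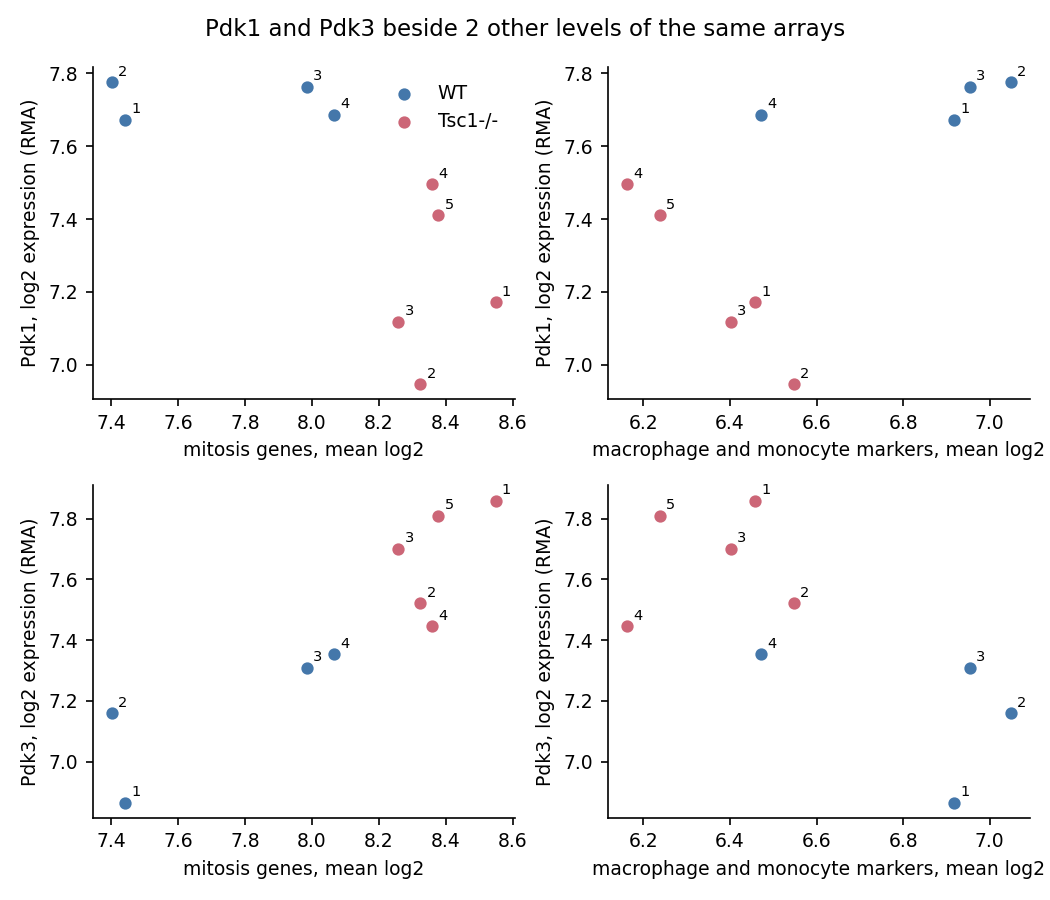
Log2 expression of Pdk1 (top) and Pdk3 (bottom) against the mean log2 level of the mitosis genes (left) and of the macrophage and monocyte markers (right) in the same arrays, with replicate numbers. The mitosis levels of the genotypes do not overlap, with the highest WT array at 8.07 and the lowest Tsc1-/- array at 8.26.

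Pdk2, the most widely expressed of the kinases across tissues, read 5.31, 5.19, 5.60 and 5.47 in WT and 6.11, 5.38, 5.38, 5.69 and 5.29 in Tsc1-/-. Tsc1-/- replicate 1 stood above the rest, and the other arrays of both groups overlapped. The difference was 0.17 (SE 0.16, 95% interval -0.16 to 0.51), so neither a fall of 0.16 nor a rise of 0.51 lies outside the interval. Pdk4, a further kinase gene outside the 10 and known as a FoxO and PPAR target in fasted muscle and liver, read 3.21 to 3.35 in WT and 3.11 to 3.56 in Tsc1-/-, with a difference of 0.10 (SE 0.10, adjusted p = 0.630, limma). Its level lay above only 2.4% of all genes, where a change may not be seen.

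Whether Pdk1 changed otherwise than the other kinases was tested on the log2 ratio of the genes within each array, set to a mean of 0 in WT, for 2 contrasts. The ratio of Pdk1 to Pdk3 was lower in Tsc1-/- by 0.99, or 50.3% of that in WT. It ranged from -0.22 to 0.26 in WT and from -1.24 to -0.50 in Tsc1-/-, and all Tsc1-/- arrays lay below all WT arrays (exact two-sided permutation p = 0.0159, also 0.0159 adjusted over both contrasts). The ratio of Pdk1 to Pdk2 was lower by 0.67, or 62.8% of that in WT, with WT arrays from -0.17 to 0.26 and Tsc1-/- arrays from -1.27 to -0.21 (exact permutation p = 0.0159, adjusted p = 0.0159). All Tsc1-/- arrays lay below WT for Pdk1 and above WT for Pdk3, so the ratio of Pdk1 to Pdk3 had to separate. The same holds with any one array left out (adjusted p = 0.0286 to 0.0357, exact permutation). The p-values of that ratio therefore add nothing to the separation of each gene. Those of Pdk1 to Pdk2 are not independent evidence either, since the fall of Pdk1 was known beforehand. The Pdk2 difference itself was 0.17, and 0.04 without Tsc1-/- replicate 1. The ratio of Pdk1 to Pdk2 missed the threshold without WT replicate 1, 2 or 4 (adjusted p = 0.0536 each, exact permutation; differences -0.66, -0.59 and -0.71). With the mitosis level as a covariate the contrasts were -0.65 and -0.22 (adjusted p = 0.153 and 0.540, permutation of residuals). With the macrophage level they were -1.08 and -0.80 (adjusted p = 0.0148 and 0.0813, permutation of residuals).

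**Figure D4:**
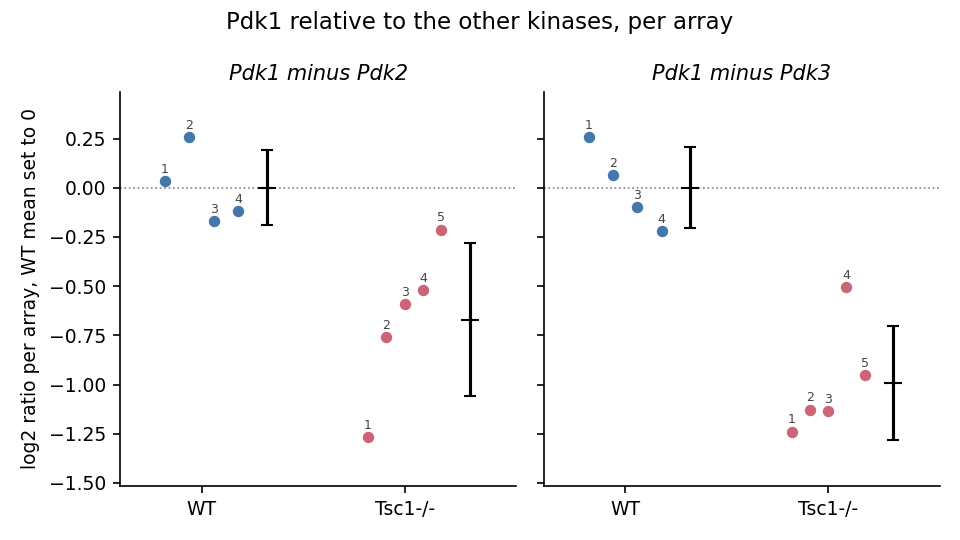
Log2 ratio of Pdk1 to Pdk2 and to Pdk3 in each array, with the WT mean set to 0 (dotted line), replicate numbers and mean ± SD. In both panels all 5 Tsc1-/- arrays lie below the 4 WT arrays, down to -1.27 and -1.24 in replicate 1.

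Promoter sequence is shown for Pdk1 and Pdk3, the kinase genes whose arrays separated in opposite directions. The windows are the 250 bases before the annotated start, from RefSeq on GRCm38.p6, and capitals mark ACGTG or GCGTG on either strand, the core letters of the hypoxia response element bound by HIF-1.
Pdk1, chr2:71872974-71873223, plus strand: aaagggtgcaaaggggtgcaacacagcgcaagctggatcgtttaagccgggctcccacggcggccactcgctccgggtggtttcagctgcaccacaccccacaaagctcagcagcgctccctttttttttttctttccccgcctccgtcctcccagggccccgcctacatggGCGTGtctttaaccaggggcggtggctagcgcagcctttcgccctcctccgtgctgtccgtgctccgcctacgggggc
Pdk3, chrX:93832151-93832400, minus strand: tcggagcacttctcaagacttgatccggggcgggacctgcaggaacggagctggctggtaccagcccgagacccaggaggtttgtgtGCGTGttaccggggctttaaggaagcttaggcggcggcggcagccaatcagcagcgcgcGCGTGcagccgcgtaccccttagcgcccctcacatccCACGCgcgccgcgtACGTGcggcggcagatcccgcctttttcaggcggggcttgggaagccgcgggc
The Pdk1 window held 1 match, GCGTG, starting 78 bases before the start, and a further annotated Pdk1 start had none. Pdk3 held 4 matches, starting 163, 104, 67 and 53 bases before the start, 1 of them (CACGC) on the opposite strand and 1 of them ACGTG. Of all 32851 promoter windows of this length, 38.6% held at least 1 such match, so the letters are common. Pdp1 had no window in the promoter annotation used. The other measured genes and Mpc1 had 11 windows, some genes having more than 1 annotated start, and 7 of the 11 windows held a match. A match describes letters only and is no evidence of binding.

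The E1 subunit genes had the smallest differences of the 8. Pdha1, which encodes the subunit that the kinases phosphorylate, read 8.15, 8.24, 8.14 and 8.32 in WT and 8.24, 8.12, 8.38, 8.29 and 8.44 in Tsc1-/-. The groups overlapped, the difference was 0.08 (SE 0.09, 95% interval -0.10 to 0.27), and the other probe set gave 0.06. Pdhb, its partner, read 9.54, 9.67, 9.65 and 9.73 in WT and 9.78, 9.73, 9.83, 9.64 and 9.71 in Tsc1-/-, a difference of 0.09 (SE 0.08, 95% interval -0.07 to 0.25). The dimmer Pdhb probe set went the other way, with a WT mean of 6.15 ± 0.21 and a Tsc1-/- mean of 5.87 ± 0.09 (SD, 4 and 5 arrays), and differed by -0.28 (exact permutation p = 0.0238; adjusted p = 0.201 over 28898 probe sets, limma), so the probe sets of this gene disagree in sign.

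Dlat and Pdhx, the core and its binding partner, both carry lipoyl groups. Dlat read 7.13, 7.39, 7.05 and 7.53 in WT and 7.60, 7.50, 7.25, 7.28 and 7.58 in Tsc1-/-, with the groups interleaved. Its difference was 0.17 (SE 0.12, 95% interval -0.09 to 0.42), and its other probe sets differed by 0.20 and 0.29. The main Dlat probe set carries a suffix for probes that may cross-hybridise, but the next one (7.17 in WT and 7.36 in Tsc1-/-) does not. Pdhx read 5.45, 5.54, 6.16 and 5.84 in WT and 6.11, 6.24, 5.89, 6.08 and 6.02 in Tsc1-/-. WT replicates 1 and 2 were low and WT replicate 3 lay among the Tsc1-/- arrays. The Pdhx difference was 0.32 (SE 0.13, 95% interval 0.03 to 0.61, adjusted p = 0.243, limma). With the mitosis level as a covariate it was -0.17 (SE 0.18, adjusted p = 0.865, limma), in a fit that can hardly separate genotype from mitosis.

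The phosphatase genes did not pass either. Pdp1, the catalytic subunit that reactivates the complex in response to calcium, read 5.29, 5.60, 6.20 and 5.55 in WT and 6.27, 5.88, 5.91, 5.67 and 5.81 in Tsc1-/-. WT replicate 3 and Tsc1-/- replicate 1 were high, and the groups overlapped, with a difference of 0.25 (SE 0.17, 95% interval -0.11 to 0.61). Its WT SD of 0.39 was the largest within a genotype among the 8 genes, where Pdk1 in WT had the smallest at 0.05. WT replicate 3 was the highest WT array for Pdk2, Pdhx and Pdp1, the 3 genes of the 8 whose mean lay under 6.34, the median over all genes. Outside the 10 genes, Pdp2, the other catalytic phosphatase, differed by 0.10 (SE 0.12). Pdpr, the regulatory subunit of the phosphatase, read 8.16, 8.15, 8.30 and 8.12 in WT and between 7.93 and 8.04 in Tsc1-/-. Its groups did not overlap, and the difference was -0.20 (SE 0.07, adjusted p = 0.177, limma; exact permutation p = 0.00794, the smallest these 9 arrays can give). This probe set carries the cross-hybridisation suffix too. The groups overlapped in each of its other 3 probe sets, which differed by -0.17, -0.20 and 0.04 (exact permutation p = 0.119, 0.0873 and 0.722).

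The pyruvate carrier could be followed through Mpc1, the obligate partner of Mpc2. Mpc1 read 7.72, 7.68, 7.73 and 7.73 in WT and 8.11, 8.06, 8.02, 8.13 and 8.10 in Tsc1-/-. Both groups were tight, and the lowest Tsc1-/- array, 8.02, lay above the highest WT array, 7.73, by several times the SD of either group. Mpc1 rose by 0.37 (SE 0.07, 95% interval 0.22 to 0.52), to 129% of WT (adjusted p = 0.0339, limma; exact permutation p = 0.00794). The call was lost without 1 array in 7 of 9 cases, with adjusted p between 0.0526 and 0.111 (limma; without Tsc1-/- replicate 3 and without WT replicate 1), and kept without WT replicate 4 or Tsc1-/- replicate 1, while the difference stayed between 0.36 and 0.38. After quantile normalization it was 0.33 (adjusted p = 0.0508, limma), and with the macrophage, B cell and mitosis levels as covariates 0.32, 0.34 and 0.31 (adjusted p = 0.495, 0.345 and 0.641, limma).

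**Figure D5:**
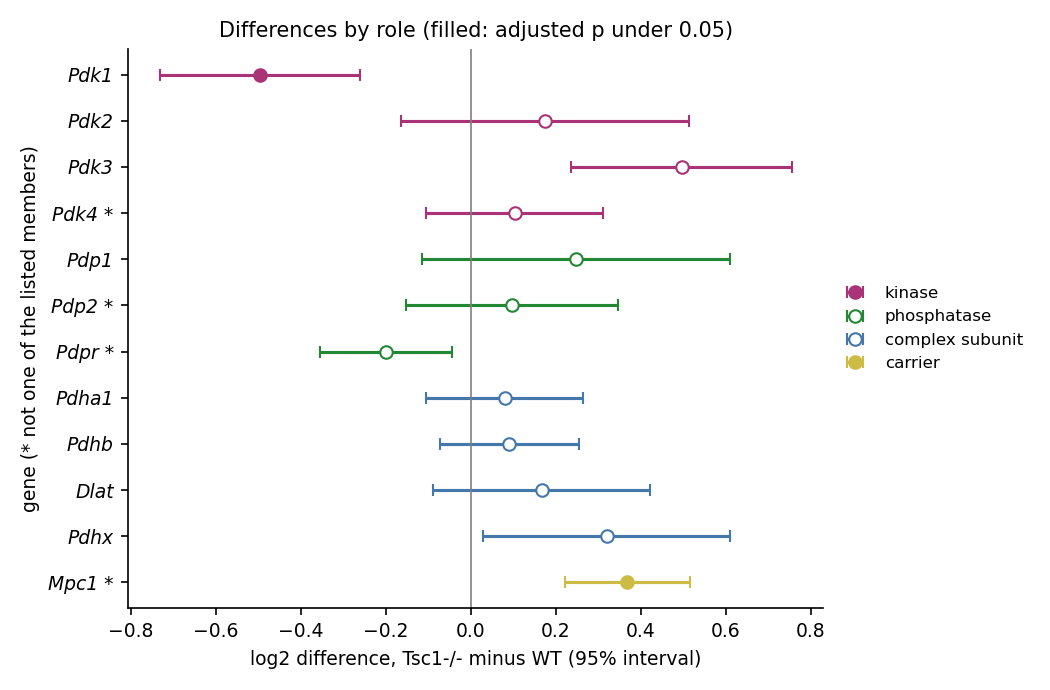
Log2 difference, Tsc1-/- minus WT, with 95% interval (limma) for the genes of the complex, its kinases, its phosphatases and the carrier, coloured by role. Filled points passed an adjusted p under 0.05: Pdk1 at -0.50 and Mpc1 at 0.37. Pdpr, a regulatory subunit, is drawn with the phosphatases. The level of Pdk4 lay above only 2.4% of all genes.

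The genes around the complex were taken from 9 lists with 106 measured genes, of which 2 rose, Mpc1 and Aldoc, none fell, and 104 did not pass. Over all genes, 1.28% passed in either direction, and 17.2% (2936 genes) had an unadjusted p under 0.05, the share to set beside the unadjusted counts of the lists. Of the 106, 23 had one. The median over the 106 was 0.09, and 8 of the 9 lists had a positive median. Of all 17097 genes, 8249 had a positive difference, and the median over genes at or above the median level was 0.03.

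The enzymes that supply cofactors had no member past the threshold among 14 measured (limma; 5 at an unadjusted p under 0.05, median 0.17, with 10 positive). Lipt1, which transfers lipoyl groups onto proteins such as Dlat, read 4.53 to 4.90 in WT and 4.97 to 5.34 in Tsc1-/-, a difference of 0.37 (SE 0.10, adjusted p = 0.0835, limma). Its level lay above only 18.9% of all genes, and the value is that of the brightest of its 3 probe sets. Isca1, an iron-sulphur assembly factor on which lipoate synthesis depends, differed by 0.27 (adjusted p = 0.120, limma). The sister complexes that share Dld or the same chemistry were the list with a negative median, -0.08 over 9 genes, none past the threshold (limma; 1 at an unadjusted p under 0.05). Bckdhb, of the branched-chain complex, differed by -0.24 (SE 0.09) and Bckdk, the kinase that inhibits that complex, by 0.23 (SE 0.13).

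Other routes of pyruvate had no member past the threshold among 11 measured (limma; 2 at an unadjusted p under 0.05, median 0.02). Ldha, which makes lactate, differed by 0.20 (95% interval 0.01 to 0.40, adjusted p = 0.278, limma), and Pkm, which makes pyruvate, by 0.22 (95% interval 0.004 to 0.44, adjusted p = 0.282, limma). Ldhb differed by 0.04 and pyruvate carboxylase, Pcx, by -0.03 (95% interval -0.24 to 0.19). Of 14 glycolysis genes, 12 had a positive difference (median 0.14) and 2 had an unadjusted p under 0.05 (limma). Only Aldoc, an aldolase, passed, rising by 0.48 (SE 0.10, adjusted p = 0.0394, limma) from 4.57 to 4.92 in WT to 5.09 to 5.41 in Tsc1-/-. The largest difference was that of Tpi1, 0.59 (SE 0.17, adjusted p = 0.101, limma), from a mean of 7.81 in WT to 8.40 in Tsc1-/-, without overlap of the groups. Aldoc lies under 6.34, the median level over all genes. Its difference was 0.25 with the mean of its 2 probe sets (adjusted p = 0.192, limma), and the call was also lost with each of the 3 covariates (adjusted p = 0.354 to 0.577, limma) and in 7 of 9 cases without 1 array (0.42 to 0.54; kept without WT replicate 4 or Tsc1-/- replicate 1). In the citric acid cycle, which burns the acetyl-CoA, 16 of 17 genes were positive (median 0.14) and none passed (limma; 5 at an unadjusted p under 0.05). The succinate dehydrogenase genes Sdhc and Sdhb differed by 0.30 and 0.28 (adjusted p = 0.126 and 0.157, limma). Citrate export and acetyl-CoA use had a median of 0.08 over 9 genes, none past the threshold (limma; 0 also at an unadjusted p under 0.05), with Slc25a1, the citrate carrier, at -0.17 and Acly, which cleaves citrate, at 0.13.

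Regulators known to act on the kinase genes gave no call among 11 measured (limma; 4 at an unadjusted p under 0.05, median 0.005), though their range was wide. Epas1, which encodes HIF-2 alpha, read 7.73, 7.84, 8.25 and 8.32 in WT and 8.15, 9.04, 9.15, 8.72 and 8.92 in Tsc1-/-, with only Tsc1-/- replicate 1 inside the WT range, and differed by 0.76 (SE 0.19, adjusted p = 0.0696, limma). Myc read 8.64, 8.65, 8.56 and 8.59 in WT and 8.47, 7.88, 8.35, 7.74 and 7.98 in Tsc1-/-, a difference of -0.53 (SE 0.14, adjusted p = 0.0750, limma). As for Pdk1, the WT arrays of Myc were tight and all Tsc1-/- arrays lay below them, but replicate 4, the highest of Tsc1-/- for Pdk1, was the lowest for Myc. Hif1a differed by 0.26 (95% interval -0.005 to 0.53), Foxo1 by 0.02 (95% interval -0.15 to 0.20) and Esrra by -0.14. Among 17 hypoxia response genes, to which Pdk1 is often counted, none passed (limma; 2 at an unadjusted p under 0.05, median 0.04, with 12 positive). Bhlhe40 differed by 0.51 (SE 0.14, adjusted p = 0.0808, limma) and Ero1a by 0.17 (SE 0.07). Of the 17, 5 were negative, as Pdk1 was, with Pfkfb4 the lowest at -0.27 (SE 0.13).

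The genes whose profile over the 9 arrays was most like that of Pdk1 were sought among 8253 genes, by the root mean square difference after each gene's mean was subtracted. They were Evl, an actin regulator (0.10), Gpr183, a receptor that guides lymphocyte positioning (0.11), Tmem63a, a membrane channel (0.12), Ssh2, a cofilin phosphatase (0.12), and Brwd1, a chromatin reader (0.13). Pdk1 itself varied by 0.29 about its mean on this measure, and the median gene lay 0.33 away from it. Their differences were -0.41, -0.62, -0.37, -0.51 and -0.40 in that order, given as a description, since likeness to Pdk1 fixed their sign.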

How the data were processed

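Expression was measured on 1 array for each of 4 WT and 5 Tsc1-/- samples, grouped by the labels. The authors deposited log2 expression values of probe sets. The submitters' processing notes name RMA and Partek 6.5, without options or filters. RMA quantile normalizes all arrays (medians 5.97 to 6.05), which hides any shift common to most genes. Of 45037 probe sets, 28898 had 1 gene in the platform annotation and 15588 were not listed. Symbols were updated through Entrez identifiers with RefSeq (GRCm38.p6).

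Genotype was the only term in limma 3.58.1 (lmFit, eBayes; R 4.3.3), two-sided, adjusted by Benjamini-Hochberg over 17097 genes; SEs are moderated. Kinase ratios were tested by exact permutation, and with covariates over all 362880 orders of residuals. Members and lists were chosen with earlier results of these data known. Named genes were the members, a fixed set of related genes, up to 4 past the threshold (or 2 where none passed) per list, and the 5 most like Pdk1. Tpi1 and Pfkfb4 were named besides, as the highest and the lowest difference of their lists. Ppargc1a had no named probe set. Tested on simulated data with 17097 genes in the layout of Tsc1-/- minus WT, the fit called 63% of log2 changes of 0.5 and 96% of log2 changes of 1. Alternatives covered probe set choice, dim genes, scaling, variance model, array weights, a replicate block, 3 covariates and each array left out. Figures were drawn with Python 3.11.15.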

Additional observations from a re-analysis of the deposited data

Results flagged for a closer look

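Of 90 groups of arrays examined, 1 array stood apart from the rest of its group in 6, where chance gives about 1 in 20 groups. Pdp1, by its dimmer probe set, read 5.88 in Tsc1-/- replicate 1 against 4.04 to 4.52 in the other Tsc1-/- arrays. Pkm read 10.70 in the same array against 10.26 to 10.29, and 10.26 in WT replicate 4 against 10.09 to 10.11. Hif1a read 8.47 in WT replicate 4 against 8.09 to 8.12. Pdp2 read 6.97 in Tsc1-/- replicate 3 against 6.56 to 6.64, and Bhlhe40 read 11.60 in Tsc1-/- replicate 5 against 11.29 to 11.36.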

How the results depend on the processing

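Pdk1 kept its negative difference in all 20 other settings and lost the threshold in 16 of them. Without one array it ranged from -0.56 to -0.43. It was -0.35 with the mean of its probe sets, -0.50 with probe sets not joined (adjusted p = 0.0588, limma), -0.52 after quantile normalization (adjusted p = 0.0508, limma), and -0.68, -0.59 and -0.51 with the macrophage, B cell and mitosis levels as covariates. The number of the 8 genes past the threshold was 1. It became 0 with the mean of probe sets, probe sets not joined, quantile normalization and each of the 3 covariates, and 2 (Pdk1 lower, Pdk3 higher) with dim genes left out, median centring, a variance trend with robust estimation, or array weights. Without one array it was 0 to 1, the 1 being Pdk3 without WT replicate 4. The ratio of Pdk1 to Pdk2 differed by -0.80, -0.75 and -0.22 with the macrophage, B cell and mitosis levels as covariates, past the threshold with none of them (adjusted p = 0.0813, 0.0578 and 0.540, permutation of residuals), and by -0.78 to -0.52 without one array. That of Pdk1 to Pdk3 differed by -1.08, -0.95 and -0.65 with the same covariates, past the threshold with the first 2 (adjusted p = 0.0148, 0.0134 and 0.153, permutation of residuals), and by -1.11 to -0.91 without one array. The settings on variance, weights, dim genes and joining were not run for these permutation tests.

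Over all genes, 219 passed (166 higher, 53 lower), against 682 with dim genes left out, 90 after quantile normalization (58 higher, 32 lower), 438 after median centring (381 higher, 57 lower), 680 with the variance trend, 465 with array weights and 2 to 456 without one array (2 without WT replicate 1 or Tsc1-/- replicate 5, 456 without WT replicate 4, within 1.5 times of 219 only without Tsc1-/- replicate 1). With the macrophage, B cell or mitosis level as a covariate 0 passed (limma), where 1472, 1637 and 1245 had an unadjusted p under 0.05, against 2936 without one. Signs turned for Pdha1 (-0.078 and -0.052 with the macrophage and B cell levels), Pdhb (-0.095 with the mean of its probe sets), and, with the mitosis level, Pdhx (-0.17), Pdk2 (-0.29) and Pdp1 (-0.21), none past the threshold; the cause was not tested.

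Replicate numbers are shared by the genotypes, and the labels do not say whether same-numbered samples are paired. Deviations of same-numbered arrays correlated at -0.10 to 0.09, and 1 of 4 WT arrays matched its own number best. With so few arrays this cannot exclude a pairing. With the replicate block on 8 arrays, Pdk1 differed by -0.54 (adjusted p = 0.154, limma), 0 of the 8 genes and 0 of all genes passed (2354 at an unadjusted p under 0.05), and the ratios of Pdk1 to Pdk2 and Pdk3 differed by -0.78 and -1.002 (exact permutation p = 0.125 each, the smallest 4 pairs allow).

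In simulated data the test called 63% of changes of 0.5. The simulated noise was independent for each gene, and the changed genes were drawn at random from all levels. The 63% is therefore an average over genes and no detection rate for Pdk1 or Pdk3.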
